A study of Bos taurus with 8 samples.

Results

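Translation initiation and elongation factors were examined as the genes whose single annotated symbol starts with EIF or EEF, without the EIF2AK kinases. This rule gave 48 of the 9155 genes measured, and each was represented by its brightest probe set (short probes that read 1 transcript together). The arrays were hybridised with RNA from biopsies of lactating mammary gland of Holstein cattle (Bos taurus). Each of 4 cows gave 1 full gland, sampled at 12 h since milk removal, and 1 empty gland, sampled at 0 h, so that every comparison was made within a cow. No drug, genotype or other treatment is named for any group, and which gland was sampled first is not analysed here. Milk transcripts of the luminal epithelium were near the top of the scale in all 8 arrays, with CSN2 (beta-casein) at a mean log2 level of 13.84 and LALBA (alpha-lactalbumin) at 14.20, as the tissue label requires.

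Protein synthesis starts when the ternary complex of eIF2, GTP and the initiator tRNA joins the small ribosomal subunit with eIF1, eIF1A, eIF3 and eIF5. The eIF4 factors bind the mRNA cap and unwind the leader, and the factor eIF2B reloads eIF2 with GTP after each round. During elongation eEF1A brings in charged tRNAs, the eEF1B subunits reload eEF1A, and eEF2 moves the ribosome along. The secretory epithelium of the lactating gland makes milk protein at a very high rate, and signalling through mTORC1 and through phosphorylation of eIF2 controls that rate, mostly by changing the factors after they are made. An array reads the amount of each transcript and not that regulation. Levels of different probe sets depend on their probes, so they are given to describe each gene and do not rank the genes. In whole biopsies, fewer cells of a type and less RNA per cell cannot be told apart.

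In cows 2 and 4 the full libraries differed more from their empty partners than in cows 1 and 3. The SD of the full minus empty log2 differences over all genes was 0.188, 0.395, 0.169 and 0.333 for cows 1 to 4. Over the 48 translation factors the same SD was 0.127, 0.345, 0.125 and 0.229. The full library of cow 2 also had the weakest signal at the 5' ends of the platform's control transcripts. The mean difference between 5' and 3' control probe sets of GAPDH, PPIB and a glutathione transferase was -2.06 log2 in that library, against -1.27 to -0.88 in the other 7. Array medians lay between 7.08 and 7.24 log2. Precision is limited by having 8 arrays. The p-values of full against empty rest on how far these 4 cows disagree in that difference, with a variance moderated over all probe sets.

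No translation factor changed between full and empty gland by the test used. With limma over all 24016 probe sets and cow as a block, 0 of the 48 genes passed an adjusted p of 0.05, and 0% of all 9155 genes did. The adjusted p of the 48 lay between 0.993 and 0.999. At an unadjusted p under 0.05 there were 0 of 48 translation factors, against 2.8% of all genes. The log2 differences ran from -0.32 to 0.34, a range of 1.25-fold lower to 1.265-fold higher, and their median size was 0.08 log2, as over all genes. The 95% intervals lay within 1.5-fold in either direction for 46 of the 48 and within 2-fold for all 48. Over all genes 87.9% of the intervals lay within 1.5-fold.

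The mean was lower in full gland for 33 of the 48 translation factors, or 68.8%, and for 51.4% of all genes. After median centring of the arrays it was lower for 38 of the 48. Translation factors were bright, with 45 of 48, or 93.75%, above the median probe set, against 67.7% of all genes. Among the 6200 genes brighter than the median probe set 56.3% had a lower mean. The median of the 48 differences was -0.04 log2, against -0.0036 over all genes. By cow the medians were -0.06, -0.09, 0.03 and -0.02 for cows 1 to 4, and -0.05, 0.03, -0.02 and 0.02 over all genes. Lower values were found for 33, 31, 17 and 29 of the 48 genes in cows 1 to 4. The direction was therefore not shared, since cow 3 had more of these genes higher than lower. With cows 2 and 4 left out, 28 of the 48 had a lower mean and the median was -0.01.

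Only EIF2B4 and EIF3B were lower in all 4 cows, which is 4.17% of the 48 against 7.11% of all genes. None of the 48 was higher in all 4 cows, against 3.59% of all genes. The full and empty arrays overlapped for each of the 48 genes, while 0.71% of all genes had no overlap. Differences of 1.5-fold or more within a cow were counted for 0 of 48 genes in cow 1, where 1.13% of all genes reached that size, and 0 in cow 3, where 0.623% did. In cow 2 there were 8 such translation factors, or 16.7%, against 12.4% of all genes, and in cow 4 there were 2, or 4.17%, against 8.19%. The 8 in cow 2 were EIF4E3 and EEF2K, which were higher, and EEF1AKMT3, EIF3B, EIF3G, EIF3I, EIF4EBP1 and EIF4H, which were lower. The 2 in cow 4 were EEF1A2, which was higher, and EIF4EBP1, which was lower.

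**Figure D1:**
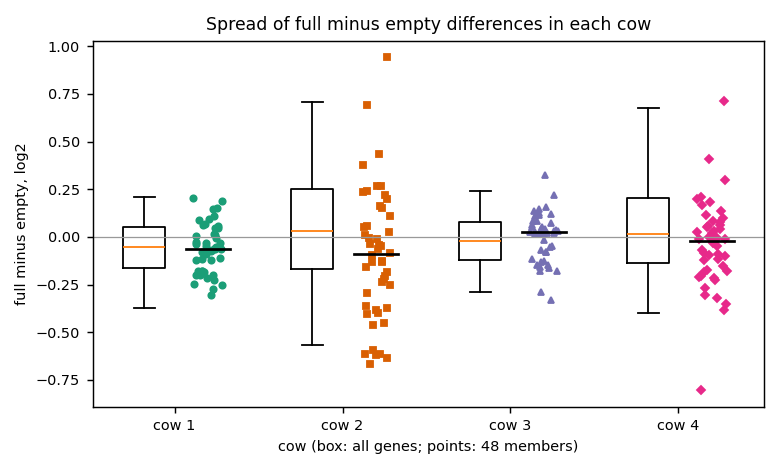
Full minus empty log2 differences in each cow for all genes (boxes: median and 25th to 75th percentile, whiskers: 5th and 95th percentile) and for the 48 translation factors (points, spread sideways at random, with a bar at their median). The points are widest in cow 2, from -0.67 to 0.94, and narrowest in cow 1, from -0.31 to 0.20.

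Factors of the ternary complex and of start codon selection were measured for 9 genes, of which 7 had a lower mean in full gland and none passed. EIF2S1 encodes eIF2 alpha, the subunit that stress kinases phosphorylate. Its log2 levels in cows 1 to 4 were 9.61, 9.45, 9.45 and 9.35 in empty gland and 9.43, 9.88, 9.37 and 9.55 in full gland. The difference was 0.09 ± 0.12 (SE from limma's moderated variance over 4 cows, here and in what follows), higher in cows 2 and 4 and lower in cows 1 and 3. EIF2S3, which encodes the GTP-binding gamma subunit, differed by -0.02, with 0.23 in cow 2 and -0.35 in cow 4.

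EIF5, the GTPase activator that triggers release of eIF2 at the start codon, was among the 5 genes with a lower mean and the smallest p. It was at 11.18, 11.12, 11.11 and 10.96 in empty gland of cows 1 to 4 and at 11.06, 10.88, 11.13 and 10.79 in full gland, a difference of -0.13 ± 0.07. It was lower in 3 of the 4 cows, and the adjusted p in limma was 0.993. EIF1, which guards the fidelity of start codon choice, was at 12.84, 12.90, 12.86 and 12.76 in empty gland and at 12.85, 12.51, 12.89 and 12.56 in full gland. Its difference of -0.14 ± 0.10 lay in cows 2 (-0.40) and 4 (-0.21), while cows 1 and 3 differed by 0.01 and 0.03. Without cow 2 it was -0.06. EIF1AX, the eIF1A of the scanning complex, differed by -0.09 and its relative EIF1B by -0.03. EIF2A and EIF2D, which can deliver initiator tRNA without eIF2, differed by -0.09 and -0.06. EIF6 keeps the ribosomal subunits apart, and its difference of 0.06 combined -0.25 in cow 1 with 0.41 in cow 4.

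The exchange factor eIF2B was read for 4 of its subunits, EIF2B1, EIF2B2, EIF2B3 and EIF2B4, and its catalytic subunit was not analysed here. EIF2B4, the delta subunit, was at 10.10, 9.68, 10.27 and 9.99 in empty gland and at 9.92, 9.67, 9.98 and 9.98 in full gland of cows 1 to 4. It was lower in all 4 cows, by 0.18 and 0.29 log2 in cows 1 and 3 but by only 0.01 in each of cows 2 and 4. The mean difference was -0.12 ± 0.08 (n = 4 cows) with an adjusted p of 0.993 in limma, and -0.07 without cow 3. The other subunits differed by -0.04 for EIF2B1, -0.05 for EIF2B2 and 0.005 for EIF2B3, each higher in at least 1 cow and lower in another.

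eIF3, the large scaffold that holds the small subunit ready for initiation, was measured through 12 genes, 9 with a lower mean and 3 with a higher one. EIF3I had the largest difference of them, -0.22 ± 0.12, with levels of 11.28, 11.03, 11.30 and 11.11 in empty gland and 11.20, 10.41, 11.38 and 10.84 in full gland. Leaving out 1 cow gave -0.32 to -0.09 for EIF3I, the last without cow 2. EIF3B, the RNA-binding subunit, was at 8.56, 8.27, 8.57 and 8.18 in empty gland and at 8.49, 7.63, 8.52 and 8.16 in full gland. Its difference of -0.20 ± 0.12 had the same sign in all 4 cows, but 3 of them differed by -0.07 or less in size and cow 2 by -0.64, so that the mean without cow 2 was -0.05. A second probe set of EIF3B was lower in cows 2 and 4 and higher in cows 1 and 3. Neither gene passed, with an adjusted p of 0.993 for each in limma.

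Probe sets of the eIF3 subunits did not share the same difference within a library. Their positions along the transcripts are not analysed here, and the full library of cow 2 had the weakest 5' signal. In that library, differences between subunits cannot be told apart from differences between probe positions. EIF3B, EIF3G and EIF3I, which sit together as a module away from the main body of the complex, differed by -0.64, -0.61 and -0.61 in cow 2, and were picked out after their values were seen. EIF3A, the backbone that reaches into that module, differed by -0.36 in the same cow. In the same library EIF3D, a cap-binding subunit, EIF3E and EIF3L were higher by 0.27, 0.22 and 0.16. In cow 4 EIF3G and EIF3I differed by -0.32 and -0.27, but EIF3B by -0.03. In cow 3 the values were 0.11 for EIF3G, 0.08 for EIF3I and -0.05 for EIF3B. EIF3E was the subunit with the highest mean relative to empty gland, at 12.08, 12.07, 11.86 and 12.21 in empty and 12.05, 12.28, 11.90 and 12.21 in full gland, a difference of 0.05 ± 0.07. The remaining EIF3CL, EIF3H, EIF3J, EIF3K and EIF3M differed by -0.08, -0.02, -0.03, 0.01 and -0.04. The annotation names EIF3CL, a near copy of EIF3C, and reads of the pair on short probes are uncertain.

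The cap and scanning factors of the eIF4 group held the translation factor with the smallest p of all 48. This was EIF4E3, a member of the cap-binding eIF4E family with an unusual way of holding the cap. It was at 8.90, 8.85, 8.56 and 9.14 in empty gland of cows 1 to 4 and at 8.86, 9.79, 8.72 and 9.44 in full gland. It was higher in cows 2, 3 and 4 by 0.94, 0.16 and 0.30 and differed by -0.04 in cow 1. The mean difference of 0.34 ± 0.17 (n = 4 cows) had an adjusted p of 0.993 in limma and a 95% interval of -0.07 to 0.75. A second, dimmer probe set of EIF4E3 had the same sign in each cow, at -0.16, 0.53, 0.02 and 0.18. Without cow 2 the difference was 0.14.

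EIF4G1, the scaffold that joins the cap to eIF3 and the poly(A) tail, was at 9.63, 9.72, 9.69 and 9.44 in empty gland and at 9.43, 9.26, 9.70 and 9.36 in full gland. It was lower in 3 of 4 cows, with a mean of -0.18 ± 0.10 and an adjusted p of 0.993 in limma. Without cow 2 the EIF4G1 difference was -0.09. Its relative EIF4G3 differed by 0.03. EIF4E itself, the main cap-binding protein, was at 10.63, 10.76, 10.75 and 10.62 in empty gland and at 10.56, 10.31, 10.79 and 10.61 in full gland. The EIF4E difference of -0.12 ± 0.10 lay almost wholly in cow 2, at -0.45, with -0.07, 0.04 and -0.004 in cows 1, 3 and 4, and was -0.01 without cow 2. EIF4E2, a cap-binding relative that represses mRNAs, differed by -0.07.

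The helicase EIF4A1 differed by -0.12 and was lower in cows 1 to 3 but higher by 0.21 in cow 4, while EIF4A2 differed by 0.01. EIF4A3, the related helicase of the exon junction complex, was at 10.15, 9.94, 9.98 and 9.71 in empty gland and at 10.09, 9.90, 9.90 and 9.79 in full gland, a difference of -0.03 ± 0.07. The helicase cofactors EIF4B and EIF4H differed by -0.02 and -0.17. In cow 2 the 3 probe sets of EIF4H spanned -0.33 to -1.67, so that probe sets of 1 transcript disagreed in size within that library by more than any mean difference of the 48 genes.

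**Figure D2:**
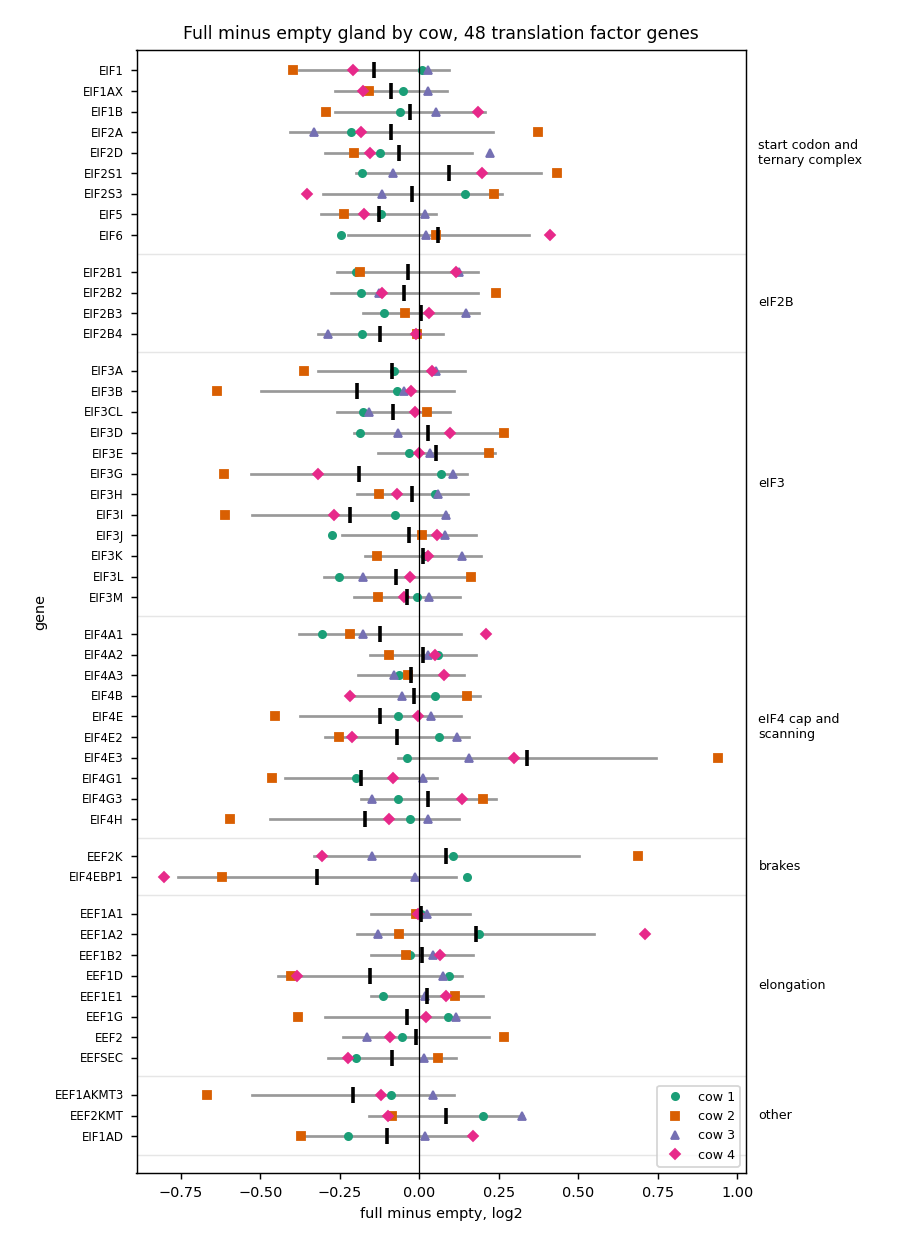
Full minus empty log2 differences of the 48 genes by role, with a point for each cow, a black tick at the mean of 4 cows and a grey line for limma's 95% interval. Every interval crosses 0, and the points farthest from 0 are those of cow 2 or cow 4 for the genes with the widest intervals, such as EIF4E3 (0.94 in cow 2) and EIF4EBP1 (-0.80 in cow 4).

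Of the brakes on translation, EIF4EBP1 and EEF2K were measured. EIF4EBP1 encodes 4E-BP1, which binds eIF4E and blocks cap-dependent initiation until mTORC1 phosphorylates it. Its levels were 10.19, 9.76, 10.10 and 10.05 in empty gland and 10.34, 9.14, 10.09 and 9.25 in full gland of cows 1 to 4. The full libraries of cows 2 and 4 were below all other arrays, at differences of -0.62 and -0.80, while cows 1 and 3 differed by 0.15 and -0.01. The mean of -0.32 ± 0.18 (n = 4 cows, 95% interval -0.76 to 0.11) was the largest lower value among the 48 genes and did not pass, with an adjusted p of 0.993 in limma. It was -0.16 without cow 4 and 0.07 with cows 2 and 4 left out.

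EEF2K encodes the kinase that switches off eEF2. It was at 10.62, 10.28, 10.36 and 10.68 in empty gland and at 10.72, 10.97, 10.22 and 10.37 in full gland. The differences of 0.11, 0.69, -0.15 and -0.31 in cows 1 to 4 gave a mean of 0.09 ± 0.17, so that the cows disagreed by more than the mean. The second EEF2K probe set gave 0.23, -0.34, 0.23 and -0.05, with the opposite sign in cows 2 and 3.

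Marker levels of other cells also differed in the full libraries of cows 2 and 4, in both directions, and no marker list had a gene that passed. Of 7 fibroblast markers 6 had a higher mean in full gland, and their median differences were -0.35, 0.17, -0.09 and 0.90 log2 for cows 1 to 4. Their summed linear signal was 16820 to 25444 in empty gland and 15638 to 36824 in full gland, with 29649 in cow 2 and 36824 in cow 4. All 8 myoepithelial markers had a higher mean, MYH11 by only 0.002, with median differences of -0.02, 0.14, -0.03 and 0.68 for cows 1 to 4. Their summed signals were 9961 to 13635 in empty and 9510 to 20696 in full gland, the last in cow 4. Of 7 myeloid markers 6 had a higher mean, the dim ITGAM by only 0.002, with median differences of -0.35, 0.33, -0.10 and 0.85 for cows 1 to 4. Their sums were 3191 to 3536 in empty and 2873 to 4487 in full gland, highest in cow 4 at 4487 but 2986 in cow 2. CD14, the brightest of them at 10.68, differed by -0.97 in cow 2, where the median of the list was 0.33. Endothelial markers had a lower mean for 4 of 5, with sums of 3770 to 4406 in empty and 3124 to 4312 in full gland, lowest in cow 2. T and NK cell markers had a higher mean for 5 of 6, with median differences of -0.13, 0.42, -0.06 and 0.41 for cows 1 to 4. Their sum in the full library of cow 2 was 2689, against 4207 to 5068 in empty gland. That sum is carried mostly by ZAP70, at a mean level of 11.715, which differed by -1.018 in cow 2. CD8A, CD3E, CD3G, CD2 and CD3D, at 6.85 to 7.63, were higher in cow 2 by 0.36 to 0.73. B and plasma cell markers had a higher mean for 3 of 4, with median differences of -0.09, 0.03, -0.08 and 0.53 for cows 1 to 4. Their sums were 3563 to 4713 in empty and 3044 to 4586 in full gland. All 3 adipocyte markers had a lower mean, with sums of 8279 to 9298 and 7791 to 9060. Most of the sums of these last lists came from their brightest markers, JCHAIN at 11.86 and FABP4 at 13.08.

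Luminal markers differed among themselves in the same libraries, with 6 of 10 higher on average. KRT18 differed by 1.19 in cow 2 and 1.36 in cow 4, KRT8 by 1.21 in cow 4 and EPCAM by 0.81 in cow 2, while MUC1 differed by -0.94 in cow 2. The summed luminal signal of 87990 to 91481 in empty and 86890 to 92368 in full gland is carried by the milk transcripts, whose probe sets lie near the highest value on the arrays. No marker is at 0 on this scale, and 1 of 8 myoepithelial, 0 of 7 fibroblast, 1 of 7 myeloid, 1 of 5 endothelial, 3 of 6 T and NK, 3 of 4 B and plasma and 2 of 3 adipocyte markers lay below the median probe set. The part of these cells in the values of EIF4EBP1 and of the other genes in cows 2 and 4 was not tested.

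**Figure D3:**
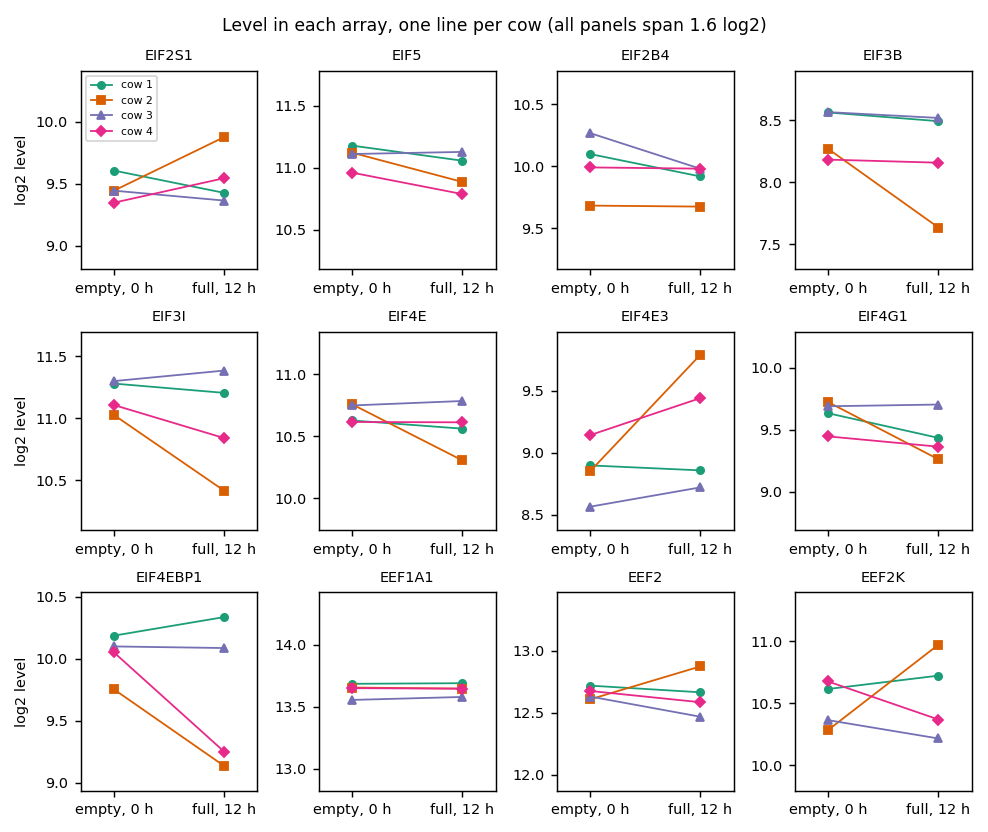
Log2 level of 12 translation factor genes in empty (0 h) and full (12 h) gland, with 1 line for each cow and the same span of 1.6 log2 in every panel. Lines of the brighter EEF1A1 probe set differ by at most 0.024, while its dimmer set, not drawn, was lower in all cows. Lines slope down for EIF4EBP1 in cows 2 and 4 (by 0.62 and 0.80), and cross for EIF2S1 and EEF2K.

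Elongation factors had a median difference of -0.0033 log2 over 8 genes, 4 with a higher and 4 with a lower mean, and none passed. EEF1A1, the carrier of charged tRNA, was at 13.68, 13.65, 13.55 and 13.65 in empty gland and at 13.69, 13.64, 13.58 and 13.64 in full gland. On this probe set no cow differed by more than 0.024 log2, and the mean was 0.004 ± 0.06 with a 95% interval of -0.15 to 0.16. A second, dimmer EEF1A1 probe set, at a mean level of 11.20, was lower in all 4 cows, with differences of -0.01, -0.13, -0.08 and -0.15 log2 and a mean of -0.09. EEF1B2, a subunit that reloads eEF1A, differed by 0.009 ± 0.07, at 13.54, 13.51, 13.51 and 13.48 in empty and 13.51, 13.47, 13.56 and 13.54 in full gland. The milk protein transcripts CSN2 and PAEP were at 13.84 and 14.39 on the same arrays, near the highest value of 14.78, as were the brighter EEF1A1 set and EEF1B2. Small differences of probe sets that bright do not show that the transcripts were stable. EEF2, the translocase, was at 12.72, 12.61, 12.63 and 12.68 in empty gland and at 12.66, 12.87, 12.47 and 12.58 in full gland. Its mean difference was -0.01 ± 0.09, with 0.27 in cow 2 and negative values in the other 3.

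EEF1G, the gamma subunit of eEF1B, was at 12.61, 12.62, 12.38 and 12.75 in empty gland and at 12.70, 12.24, 12.49 and 12.77 in full gland. It was higher in cows 1, 3 and 4 and differed by -0.38 in cow 2. EEF1D, the delta subunit, differed by 0.09, -0.40, 0.07 and -0.38 in cows 1 to 4, which is the same split of cows as in EIF4EBP1. EEF1E1 is a scaffold of the tRNA synthetase complex despite its name, and differed by 0.02. EEFSEC, which delivers selenocysteine, was at 6.85, 6.61, 6.66 and 6.58 in empty gland and at 6.65, 6.67, 6.68 and 6.36 in full gland, below the median probe set and with a difference of -0.09 ± 0.08.

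EEF1A2 is the form of eEF1A used by skeletal muscle and neurons, and its probe set was dim. The levels were 5.62, 5.76, 5.71 and 5.67 in empty gland and 5.81, 5.70, 5.58 and 6.38 in full gland, so that 1 library, the full gland of cow 4, stood above the rest. The mean difference of 0.18 ± 0.15 was -0.0018 without cow 4. ACTA1, skeletal muscle actin, differed by 1.77 in cow 4 and by -0.06, -0.09 and 0.06 in cows 1 to 3. Of 9 skeletal muscle genes, a list added after the values were seen, 4 had a higher mean. Their summed linear signal was 3984 to 6256 in empty gland and 3828 to 9388 in full gland, highest in cow 4. TPM2, at a mean level of 11.742, and CKM, at 10.095, carry most of that sum, with the remaining genes at 5.66 to 6.33. CKM and TPM2 were higher by 0.55 and 0.62 in cow 4, and MYH1 by 0.17. The myoepithelial markers had a median difference of 0.68 in that cow, so the TPM2 part of the sum cannot be assigned to skeletal muscle alone. TNNC2, TNNT3, TNNI2, MYL1 and MB differed in cow 4 by -0.25, -0.07, -0.09, -0.12 and -0.15, at levels below the median probe set. The part of muscle in the EEF1A2 value was not tested.

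The remaining genes of the rule were EEF1AKMT3, EEF2KMT and EIF1AD. EEF1AKMT3, a methyltransferase of eEF1A, was at 7.76, 7.84, 8.00 and 7.87 in empty gland and at 7.67, 7.17, 8.04 and 7.75 in full gland. Its difference of -0.21 ± 0.13 was -0.06 without cow 2, where it was -0.67. EEF2KMT, which methylates eEF2, was dim at 5.73, 5.86, 5.63 and 5.81 in empty and 5.93, 5.78, 5.95 and 5.71 in full gland, a difference of 0.09 ± 0.10. EIF1AD, a protein with an eIF1A-like domain, differed by -0.10.

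Differences between the 4 animals were tested in the same limma model with an F-test of the cow terms, and 0 of the 48 translation factors passed an adjusted p of 0.05, against 0.481% of all genes. At an unadjusted p under 0.05 there were 5 of 48, or 10.4%, against 16.9% of all genes. These were EEF1E1, EIF2B4, EIF3B, EIF4A3 and EIF3I. EEF1E1 came closest, with an adjusted p of 0.14 in limma. It was at 9.93, 9.64, 9.57 and 9.11 in empty gland of cows 1 to 4 and at 9.81, 9.76, 9.59 and 9.20 in full gland, so that cow 4 lay lowest and cow 1 highest in both states. The mean level of a cow ranged over 0.71 log2 for EEF1E1, against a full minus empty difference of 0.02. The widest range between cows was that of EIF4EBP1, at 0.82 log2, and the narrowest was that of EEF1B2, at 0.05. These are means of a cow's full and empty arrays. For EIF4EBP1 they include the low full libraries of cows 2 and 4, while its empty arrays spanned 9.76 to 10.19. For EIF3B and EIF3I they include the low full library of cow 2, at 7.63 and 10.41, against 8.27 and 11.03 in the empty library of that cow.

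EEF1A1 and EIF4E are also among the transcripts that the platform covers with separate control probe sets at the 5' end, the middle and the 3' end. For EEF1A1 the 5' set differed by 0.14, -1.06, 0.37 and 0.11 in cows 1 to 4, the middle set by 0.14, -0.06, 0.08 and -0.33 and the 3' set by -0.005, -0.19, -0.08 and -0.20. For EIF4E the 5' set differed by 0.007, -1.14, 0.37 and -0.09, the middle set by -0.06, -0.92, 0.28 and -0.04 and the 3' set by 0.02, -0.15, 0.05 and -0.13. In cow 2 both transcripts were thus lower by about 1 log2 at the 5' end and by under 0.20 at the 3' end, so that the size of the difference depended on the position read. In cow 3 the 5' ends of both were higher in full gland, and the empty library of cow 3 had the lowest 5' minus 3' value among the empty arrays for both transcripts (1.25 for EEF1A1 and -3.56 for EIF4E).

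The probe set used for EIF4E differed by -0.45 in cow 2, between the values of the middle and 3' controls. The 3' control was the brighter one at a mean of 10.88 against 10.63, and it differed by -0.05 over the 4 cows in place of -0.12. The position of the other probe sets along their transcripts is not analysed here. With the 5' minus 3' value of each array as a covariate in limma, 0 of the 48 genes passed, 33 again had a lower mean and the median was -0.04.

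**Figure D4:**
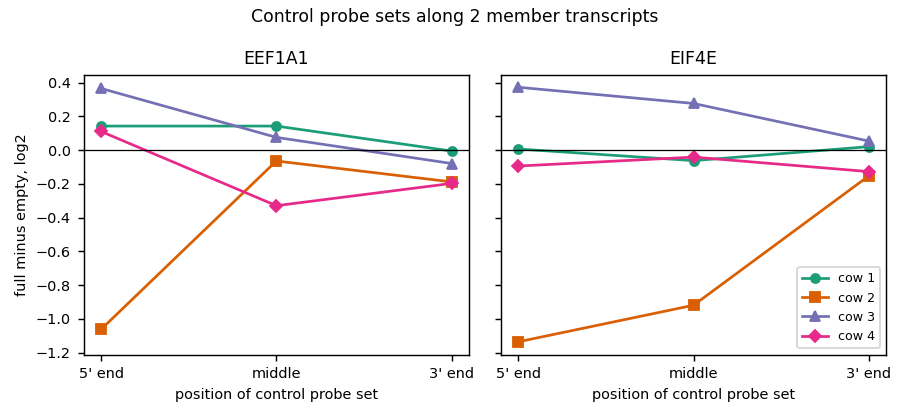
Full minus empty log2 differences of the platform's control probe sets at the 5' end, middle and 3' end of EEF1A1 and EIF4E, with 1 line for each cow. In cow 2 the 5' sets are at -1.06 and -1.14 and the 3' sets at -0.19 and -0.15, while cows 1, 3 and 4 stay within -0.33 and 0.37.

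Among the 15 translation factors with more than 1 tested probe set, all probe sets had the same sign of the mean difference for 10 genes. The genes with mixed signs were EEF1A1, EIF2A, EIF2B3, EIF2S3 and EIF4G3, whose probe sets differed among themselves by 0.04 to 0.13 log2. Over the 15 genes that range had a median of 0.07 and was widest for EIF4E3, at 0.19, a gene whose probe sets had the same sign in every cow.

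None of the companion genes of translation passed over all probe sets. Of 7 genes of the eIF2 kinases and the stress response, 6 had a lower mean and the median was -0.07 log2. ATF4, the transcription factor made when eIF2 is phosphorylated, differed by -0.16 and EIF2AK1, the haem-regulated kinase, by -0.07. Of 15 genes of mTORC1 and MNK signalling, 11 had a lower mean and the median was -0.08. AKT1S1, an inhibitory partner of mTORC1, was lower in all 4 cows with a mean of -0.33 ± 0.14. SESN2, a leucine sensor that restrains mTORC1, was higher in all 4 cows with 0.27 ± 0.11, but by only 0.01 in cow 1. It was dim, at a mean level of 6.82, below the median probe set. Over all genes 7.11% were lower and 3.59% higher in all 4 cows. AKT1S1 and SESN2 leaned most in cows 2 and 4, at -0.78 and -0.40 for AKT1S1 and 0.60 and 0.34 for SESN2.

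Termination, recycling and poly(A)-binding genes were split, with 7 of 11 lower and a median of -0.02. GSPT1, the release factor eRF3, was lower in all 4 cows by 0.07 to 0.24 log2, with a mean of -0.17 ± 0.07, and HBS1L, a rescue factor for stalled ribosomes, differed by -0.18 ± 0.09. The cytosolic tRNA synthetases and their scaffolds, which include EEF1E1, had 15 of 19 genes lower, 4 of them in all 4 cows, and a median of -0.09 log2. Over all genes 7.11% were lower in all 4 cows. The alanine enzyme AARS1 differed by -0.17 ± 0.07 and the cysteine enzyme CARS1 by -0.25 ± 0.11. Of 5 enzymes that make hypusine on eIF5A or diphthamide on eEF2, 3 were lower and the median was -0.07. DHPS and DOHH, which make hypusine in sequence, were each lower in all 4 cows, at -0.16 ± 0.07 and -0.11 ± 0.07, against 7.11% of all genes lower in all 4. The largest difference of the 5 went the other way: DPH2, a diphthamide enzyme, differed by 0.25, with 0.98 in cow 2. These lists were chosen with earlier results of these data known, and over all genes the mean was lower for 51.4%.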

How the data were processed

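Deposited values are on the log2 scale, and the submitters' processing notes name RMA (version not given in the sources used here). RMA corrects background, equalises the arrays' distributions and summarises probes, so a shift shared by most genes is removed. Per the labels' protocols, cDNA was primed from the poly(A) tail, so labelling starts at the 3' end. Of 24128 probe sets, 112 controls of the platform were not tested. Genes were taken from 13292 probe sets with 1 symbol, and all 48 members matched RefSeq by entrez number and symbol. Another 14 RefSeq genes of the rule (62 in all) were not analysed here, nor were 2 probe sets shared by EIF4EBP3 and ANKHD1, nor planned comparisons of promoter and protein sequences. For EIF4E the platform's 3' control was brighter than the tested probe set, which was kept.

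limma 3.58.1 in R 4.3.3 was fitted to all 24016 tested probe sets with state and cow as fixed terms, two-sided, with Benjamini-Hochberg adjustment and a threshold of 0.05 (3 residual and 2.81 prior degrees of freedom). Cow was the block because the descriptions give each cow a full and an empty sample. Deviations of same-cow arrays correlated at 0.457, 0.319, 0.598 and 0.525. Differences are full minus empty in log2, and no filter on low values was used. Values in every array were given for the 5 smallest p-values in each direction, the 5 highest and 3 lowest levels, the 4 smallest p-values between cows and 6 regulators. The members and lists were chosen with earlier results of these data known. Python 3.11.15, numpy 2.4.6 and pandas 2.3.3 made the summaries. The model was run on simulated data with the same noise in every cow. This does not copy the wider spread of cows 2 and 4, so it cannot vouch for these arrays.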

Additional observations from a re-analysis of the deposited data

Results flagged for a closer look

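In 3 of 96 groups of 4 arrays (48 genes, full and empty), 1 array lay far from the other 3 by Dixon's test, and chance flags about 1 in 20 groups. EEFSEC was at 6.36 in the full library of cow 4, against 6.65 to 6.68 in the other full libraries. EIF4A2 was at 11.89 in the empty library of cow 2, against 11.72 to 11.74. EIF4G3 was at 9.72 in the same empty library, against 9.77 to 9.78.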

How the results depend on the processing

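The count of translation factors passing, 0 of 48 in limma, stayed at 0 under each alternative: median centring, a fit with no replicate block (0), quantile normalization run again, cow as a random term, brighter probe sets, an intensity trend with robust prior, averaged probe sets, each cow left out and an adjusted p of 0.1. The same held for 2 alternatives added after seeing the data, a 5' minus 3' covariate and leaving out cows 2 and 4. Unadjusted p-values under 0.05 numbered 0 to 5 of 48. The count passing between cows stayed at 0, and the number of lower means lay between 28 and 38.

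The number of genes with 1 direction in all cows kept was 2, but 4 after median centring, 4 to 11 with 1 cow left out and 22 with cows 2 and 4 left out, where fewer cows have to share it. Signs turned for 2 to 5 of 48 genes under the scaling and probe set choices, all with differences of at most 0.023 in size. They turned for 4 to 11 with 1 cow left out and for 19 without cows 2 and 4. Among genes given in every array, EEF1A1 was -0.045 with the mean of probe sets and -0.013 with median centring, and EEF1B2 was -0.0085 with median centring. Without cows 2 and 4, EIF2S1 was -0.131, EIF3E -0.00031, EIF4EBP1 0.068, EIF3I 0.0047, EIF1 0.018, EEF1G 0.103, EEF1E1 -0.048 and EEF2K -0.02. With 1 cow left out the range was -0.0018 to 0.279 for EEF1A2, -0.021 to 0.184 for EIF2S1, -0.00047 to 0.084 for EIF3E, -0.0027 to 0.0085 for EEF1A1, -0.0098 to 0.026 for EEF1B2, -0.103 to 0.04 for EEF2, -0.09 to 0.075 for EEF1G, -0.0045 to 0.071 for EEF1E1 and -0.116 to 0.216 for EEF2K. The causes were not tested. With 4 cows the precision is limited, and why no gene on the arrays passed was not tested. The largest mean difference over all genes was 1.24 log2 in size. Of all genes 2.8% had an unadjusted p under 0.05 in limma, where chance would call about 5%.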
